A study of Arabidopsis thaliana with 9 samples.

Results

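Ubiquitin-specific proteases (UBPs) form a large family of enzymes that remove the small protein ubiquitin from other proteins. Ubiquitin chains mark many proteins for breakdown by the proteasome, and single ubiquitins on histones take part in the control of transcription, so UBPs can spare a protein, recycle ubiquitin or change chromatin. In Arabidopsis, members of the family are known for roles in organ growth, embryo development, abscisic acid response and gene silencing. The genes described here are those whose symbol is UBP followed by a number and whose probe set the array annotation pairs with exactly 1 gene. Of 27 such genes in the reference gene table, 8 had a probe set among the 10343 probe sets of the deposited table, with 1 probe set each, namely UBP15, UBP16, UBP19, UBP20, UBP23, UBP24, UBP26 and UBP27. The other 19 UBP genes were not analysed here.

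The samples were whole wild-type seedlings of Arabidopsis thaliana, with 9 Affymetrix arrays in all, 3 for each of 3 time points. The 0 d seedlings were 4 days old and had grown on MS medium, and the 2 d and 8 d seedlings were moved at that age to MS medium with 2.26 µM 2,4-D, a synthetic auxin, and 0.46 µM kinetin, a cytokinin, for 2 or 8 days. The pair of hormones is a standard inducer of callus, a mass of dividing cells, and the arrays were made as a comparison for another chemical inducer, FPX, whose arrays were not analysed here. Time on the hormones and age of the seedlings cannot be told apart, and nothing in the labels says that the 3 arrays of a time point came from separate cultures, so a p-value here covers the spread between arrays alone, which may be technical.

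The values are linear probe set signals. Array medians ran from 445 to 546 and upper quartiles from 1059.5 to 1101. Of the 10343 probe sets, 10323 (99.8%) passed a one-way F test over the time points at p under 0.05, before adjustment, and 20 did not. How the probe sets of the table were selected is not given in the sources used here, so a UBP gene found in it may have been kept because it differed. In that case a low p-value for such a gene was partly set in advance. The p-values and shares below hold within this table alone. Over all probe sets the median log2 change was 0.19 in 2 d against 0 d, 0.40 in 8 d against 0 d and 0.26 in 8 d against 2 d. Of the leaf photosynthesis markers, 3 of 9 were in the table (RCA, LHCB4.1 and LHCB4.2), with a summed signal of 44002 to 50016 at 0 d, 38732 to 45544 at 2 d and 18541 to 23322 at 8 d. Of the root hair markers, 2 of 6 were in the table, with sums of 976 to 1107 at 0 d, 191 to 271 at 2 d and 135 to 262 at 8 d. Of the genes listed as stomatal lineage markers, 2 of 5 were in the table (STOMAGEN and FMA). Their sums were 631 to 766 at 0 d, 491 to 642 at 2 d and 80.0 to 123 at 8 d. STOMAGEN gave most of the sum at 0 d and 2 d, with means of 571, 402.5 and 34.4 at 0 d, 2 d and 8 d. The means of FMA were 122, 165 and 62.3, so at 2 d FMA went the other way from the sum. Neither gene differed at an adjusted p under 0.05 (limma) in 2 d against 0 d, and both were lower at 8 d. Of the callus markers, 1 of 5 was in the table (LBD16), with 121 to 173 at 0 d, 291 to 534 at 2 d and 331 to 671 at 8 d, and no marker of the root or shoot meristem was. These sums moved with time, and their part in the UBP values was not tested. In whole seedlings, fewer cells of a type and less RNA per cell cannot be told apart.

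A change below is the difference in mean log2 signal, the later time point minus the earlier, with the standard error (SE) of limma and 3 arrays per time point. A gene was said to have risen or fallen when its adjusted p, by Benjamini-Hochberg over all 10343 probe sets, was under 0.05 and its log2 change was at least 1. All 8 UBP genes had a higher mean signal at 8 d than at 0 d, and UBP15 and UBP23 rose. Over all probe sets 43.5% were called in either direction and 25.4% rose, so 2 of 8 is a share near the background. With the fold threshold set aside, all 8 were higher at 8 d than at 0 d (limma, adjusted p from 8.64e-06 to 0.00259), against 54.3% of all probe sets, and an unadjusted p under 0.05 was had by all 8 and by 90.4% of probe sets in either direction. No UBP gene was called by limma in 2 d against 0 d, against 14.9% of probe sets called, 9.75% of all being called higher, while 7 of the 8, all but UBP19, were higher at an unadjusted p under 0.05, against 67.6% of probe sets in either direction. The 8 d arrays of all 8 genes lay above their 0 d arrays without overlap, as did those of 55.2% of all probe sets. The 2 d arrays lay above the 0 d arrays for 7 of the 8, against 43.4% of probe sets. These counts depended on the scaling. After quantile normalization they were 6 at 8 d and 5 at 2 d, and after median centring 8 and 5. The shares of all probe sets without overlap were not computed under those scalings.

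**Figure D1:**
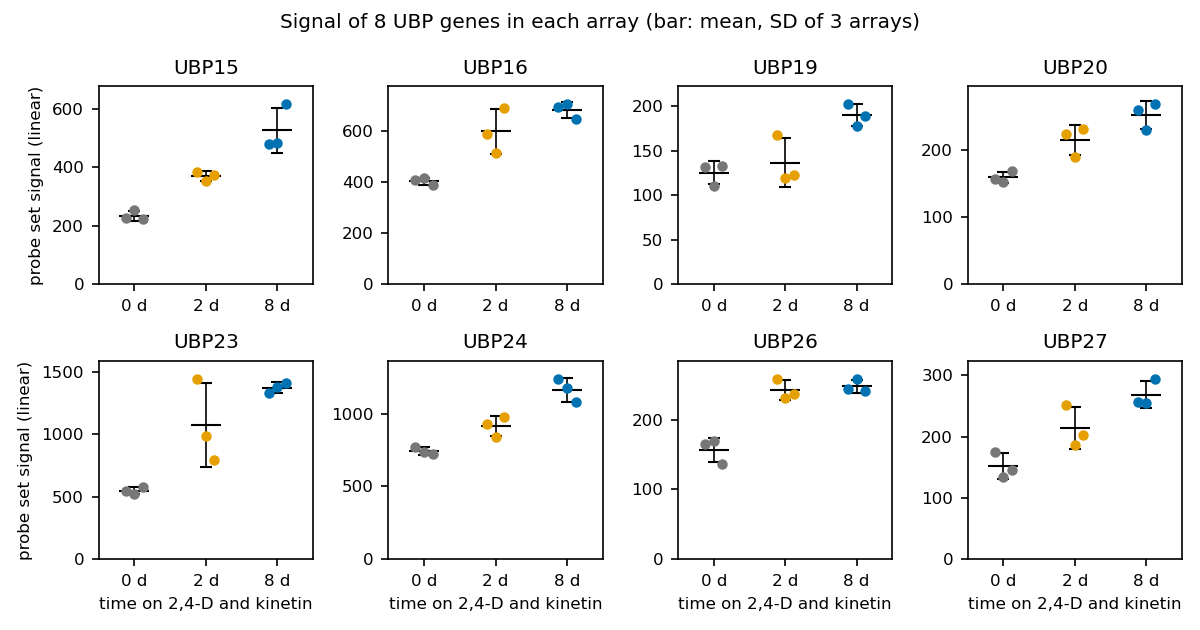
Linear probe set signal (vertical axis, from 0, a separate scale for each gene) of the 8 UBP genes at 0 d, 2 d and 8 d. Points are single arrays and bars show the mean and SD of 3 arrays. The 8 d arrays lie above the 0 d arrays in every panel, and the 2 d arrays of UBP23 are spread from 797 to 1446.

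UBP15, UBP16 and UBP19 belong to the group of Arabidopsis UBPs that carry a MYND-type zinc finger. UBP15 (AT1G17110) promotes cell proliferation and organ size and is itself cleaved by the growth-restricting peptidase DA1. Its signal was 225, 253 and 223 at 0 d, 384, 351 and 372 at 2 d, and 479, 483 and 616 at 8 d. The 3 time points did not overlap, and 8 d replicate 3 stood above the other two 8 d arrays. UBP15 rose in 8 d against 0 d, with a mean of 526 ± 77.7 at 8 d and 234 ± 16.6 at 0 d (SD, n = 3 each), a log2 change of 1.16 (SE 0.12, 95% interval 0.90 to 1.43), which is 2.24-fold (limma, adjusted p = 8.64e-06). At 2 d its change was 0.66 (SE 0.12), short of the fold threshold, and from 2 d to 8 d it was 0.50 (SE 0.12; limma, adjusted p = 0.00376), also short of it. The rise at 8 d depended on the scaling of the arrays: it was 0.81 after quantile normalization, 0.89 after centring each array on its median and 0.98 after adding 64 to each signal, all short of the fold threshold.

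UBP16 (AT4G24560) is known for salt tolerance, where it stabilises a serine hydroxymethyltransferase. Its signal was 406, 413 and 388 at 0 d, 588, 514 and 690.3 at 2 d, and 694, 704 and 647 at 8 d. The 2 d and 8 d arrays overlapped, and both lay above the 0 d arrays. Its change was 0.56 (SE 0.12) at 2 d and 0.76 (SE 0.12) at 8 d, each against 0 d, and 0.20 (95% interval -0.06 to 0.46) from 2 d to 8 d, none past the fold threshold.

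UBP19 (AT2G24640) is needed for embryo development. Its signal was 132, 111 and 133 at 0 d, 168, 119.5 and 123 at 2 d, and 202, 178 and 188 at 8 d. The 2 d arrays overlapped those of 0 d, and the 8 d arrays lay above all others. UBP19 was at 0.11 (SE 0.14, 95% interval -0.21 to 0.43) in 2 d against 0 d, below the median of all probe sets. That value changed sign with the scaling, to -0.27 after quantile normalization and -0.061 after median centring, and also without 2 d replicate 1 (-0.044) and with array weights (-0.041). In 8 d against 0 d it was at 0.60 (SE 0.14), and in 8 d against 2 d at 0.49 (SE 0.14; limma, adjusted p = 0.0112). The first of these was 0.17 after quantile normalization and 0.33 after median centring (limma, adjusted p = 0.322 and 0.0533). The second was 0.45 and 0.39 (limma, adjusted p = 0.0263 and 0.0329).

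For these 3 related genes the ratio of 2 signals on the same array is left as it is when the whole array is multiplied by one factor, whereas quantile normalization changes it. The UBP15 change in 8 d against 0 d exceeded that of UBP16 by 0.40 and that of UBP19 by 0.56 on the log2 scale, and by 0.30 and 0.64 after quantile normalization. The log2 ratio of UBP15 to UBP16 lay between -0.54 and -0.07 at 8 d and between -0.85 and -0.71 at 0 d, without overlap. That of UBP15 to UBP19 lay between 1.24 and 1.71 at 8 d and between 0.75 and 1.19 at 0 d, also without overlap. Each had an exact two-sided permutation p = 0.1, the smallest that 3 arrays against 3 allow, and an adjusted p = 0.225 over the 9 ratios compared, so neither passed. The UBP16 change in 8 d against 0 d exceeded that of UBP19 by 0.16 (exact permutation p = 0.3), and by 0.34 after quantile normalization (exact permutation p = 0.2), with overlapping arrays in both. In 2 d against 0 d the UBP15 change exceeded that of UBP16 by 0.10 (exact permutation p = 0.4) and that of UBP19 by 0.55 (exact permutation p = 0.1). There UBP16 exceeded UBP19 by 0.45 (exact permutation p = 0.2), and by 0.65 after quantile normalization (exact permutation p = 0.1). From 2 d to 8 d UBP15 exceeded UBP16 by 0.30 (exact permutation p = 0.1) and UBP19 by 0.01. None passed after adjustment.

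UBP23 (AT5G57990) had the largest change of the 8. Its signal was 549, 519 and 574 at 0 d, 1446, 984 and 797 at 2 d, and 1329, 1381 and 1416 at 8 d. The 0 d and 8 d arrays were tight, whereas the 2 d arrays were spread widely, with replicate 1 as high as the 8 d arrays. UBP23 rose in 8 d against 0 d, with a mean of 1375 ± 43.6 at 8 d and 547 ± 27.7 at 0 d (SD, n = 3 each), a log2 change of 1.33 (SE 0.18, 95% interval 0.93 to 1.73), which is 2.51-fold (limma, adjusted p = 6.08e-05). This call held under every scaling tried, from 1.06 with median centring to 1.41 with hybridisation-control centring. In 2 d against 0 d it was at 0.93 (SE 0.18), with a mean of 1076 ± 334 at 2 d, just short of the fold threshold. It was called there without 2 d replicate 3 (1.12) and with the hybridisation controls as the scale (1.13), and was at 0.70 without 2 d replicate 1. From 2 d to 8 d its change was 0.40 (95% interval -0.005 to 0.80; limma, adjusted p = 0.0663), against 0.63 without 2 d replicate 1 (limma, adjusted p = 0.00101) and 0.20 without 2 d replicate 3 (limma, adjusted p = 0.263).

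UBP26 (AT3G49600) removes ubiquitin from histone H2B and is needed for the silencing of repeats and for seed development. Its signal was 164, 169 and 137 at 0 d, 258, 231 and 237 at 2 d, and 243, 258 and 241 at 8 d. The 2 d and 8 d arrays covered the same range, above all 0 d arrays. Its change was 0.63 (SE 0.11) in 2 d against 0 d and 0.66 (SE 0.11) in 8 d against 0 d. After quantile normalization these changes were 0.30 and 0.22 (limma, adjusted p = 0.0339 and 0.0777). From 2 d to 8 d UBP26 was at 0.03 (95% interval -0.21 to 0.28). That value changed sign with the scaling, to -0.084 with quantile normalization, -0.065 with median centring and -0.088 with hybridisation-control centring. Its mean was 248 ± 9.39 at 8 d and 242 ± 14.3 at 2 d (SD, n = 3 each).

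UBP24 (AT4G30890) acts in abscisic acid response and stomatal closure. Its signal was 771, 733 and 722 at 0 d, 929, 839.6 and 974 at 2 d, and 1239, 1174 and 1078 at 8 d. The 3 time points did not overlap, and its spread between replicates was the smallest of the 8, with a pooled SD of 0.09 on the log2 scale, against a median of 0.17 over all probe sets. Its change was 0.30 (SE 0.10) in 2 d against 0 d, 0.65 (SE 0.10) in 8 d against 0 d and 0.35 (SE 0.10; limma, adjusted p = 0.010) in 8 d against 2 d, all short of the fold threshold.

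UBP27 (AT4G39370) lies at the mitochondrial outer membrane, where it affects mitochondrial shape. Its signal was 176, 134 and 146 at 0 d, 252, 186 and 203 at 2 d, and 257, 255 and 294 at 8 d. The 3 time points did not overlap, although 2 d replicate 1 nearly reached the 8 d arrays. Its change was 0.49 (SE 0.14) at 2 d and 0.83 (SE 0.14, 95% interval 0.51 to 1.15) at 8 d, each against 0 d, and 0.34 (SE 0.14; limma, adjusted p = 0.052) from 2 d to 8 d. UBP20 (AT4G17895) had signals of 157, 153 and 168 at 0 d, 225, 189 and 232 at 2 d, and 259.7, 229.8 and 269 at 8 d. Its 2 d and 8 d arrays overlapped, above those of 0 d. The changes of UBP20 against 0 d were 0.43 (SE 0.11) at 2 d and 0.66 (SE 0.11) at 8 d. After quantile normalization they were 0.088 and 0.22 (limma, adjusted p = 0.53 and 0.0956). From 2 d to 8 d its change as deposited was 0.23 (95% interval -0.02 to 0.48).

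**Figure D2:**
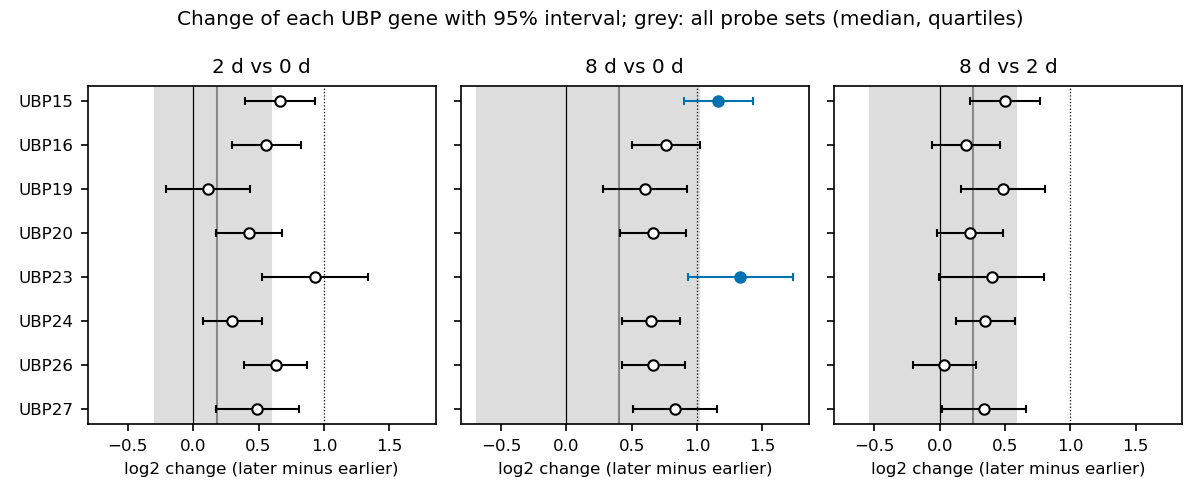
Log2 change (later minus earlier) of each UBP gene with its 95% interval from limma, in 2 d against 0 d, 8 d against 0 d and 8 d against 2 d. Filled points passed an adjusted p of 0.05 and a log2 change of 1 (dotted line). The grey line and band are the median and quartiles of all 10343 probe sets. UBP15 and UBP23 lie beyond the upper quartile at 8 d, and the other 6 lie inside the band.

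The median of the 8 was 0.53 in 2 d against 0 d (0.19 for all probe sets), 0.71 in 8 d against 0 d (0.40 for all) and 0.34 in 8 d against 2 d (0.26 for all). In 8 d against 0 d, UBP23 had a larger change than 85.0% of probe sets and UBP15 than 80.3%, and the other 6 stood between 57.9% (UBP19) and 68.2% (UBP27). The same shares for 2 d against 0 d ran from 45.7% (UBP19) to 88.4% (UBP23; 88.35% before rounding), and those for 8 d against 2 d from 39.4% (UBP26) to 68.99% (UBP15). No UBP gene was called by limma in 8 d against 2 d, against 22.1% of probe sets called in either direction and 7.36% called higher, and 4 of the 8 had an unadjusted p under 0.05, against 78.5% of probe sets. At an adjusted p under 0.05 whatever the fold, UBP15, UBP19 and UBP24 were higher in that comparison, 3 of 8 against 46.6% of probe sets. The count was 5 without 2 d replicate 1, when UBP23 and UBP27 joined them, and 7, all but UBP26, with array weights. The share of all probe sets was not computed for either setting. The 8 d arrays lay above the 2 d arrays without overlap for UBP15, UBP19, UBP24 and UBP27, 4 of 8 against 48.1% of probe sets. The comparisons of 2 d and of 8 d with 0 d share the 0 d arrays.

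How many UBP genes stood out at 2 d depended on the scaling. At an adjusted p under 0.05 whatever the fold, 7 of 8 were higher at 2 d than at 0 d as deposited, against 40.1% of all probe sets. Only 4 (UBP15, UBP16, UBP23 and UBP26) were so after median centring, against 28.4% of all, and the same 4 after quantile normalization, against 27.3% of all. In 8 d against 0 d the count was 8 as deposited, 7 (all but UBP19) after median centring, against 43.4% of all, and 5 (UBP15, UBP16, UBP23, UBP24 and UBP27) after quantile normalization, against 45.3% of all. No UBP gene was lower at an adjusted p under 0.05 in any of the 3 comparisons as deposited, against 23.4% of probe sets in 2 d against 0 d, 35.8% in 8 d against 0 d and 29.9% in 8 d against 2 d, or under the 4 other scalings.

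**Figure D3:**
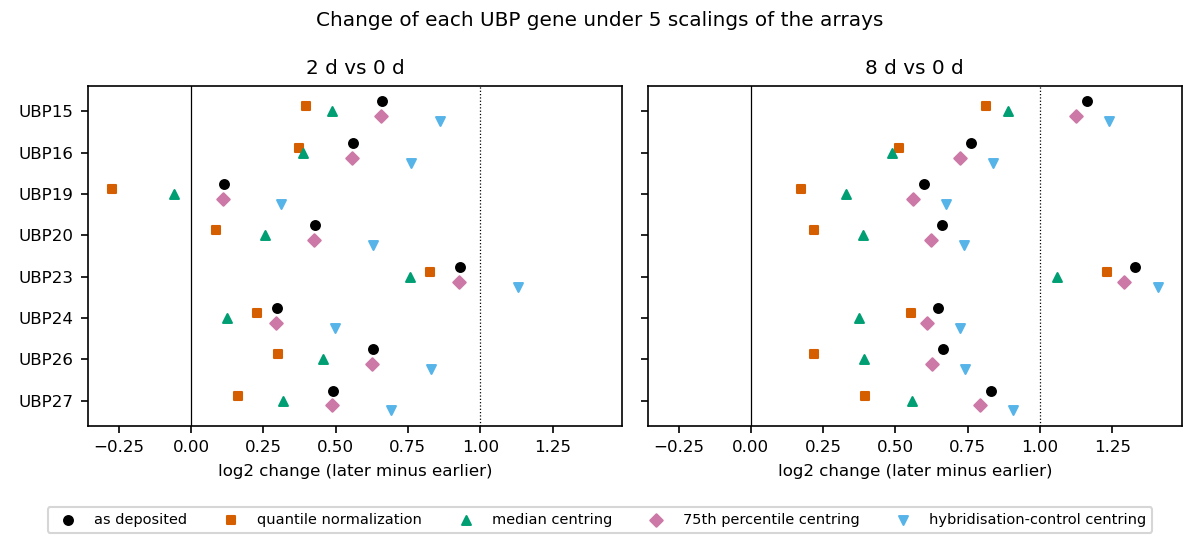
Log2 change (later minus earlier) of each UBP gene in 2 d against 0 d and 8 d against 0 d, with the arrays as deposited and under 4 other scalings. The dotted line marks a log2 change of 1. All 8 genes stay above 0 at 8 d, UBP19 falls below 0 at 2 d under 2 scalings, and UBP23 alone stays beyond the dotted line at 8 d under all 5.

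Replicates of the 2 d group differed for the UBP genes in a shared way. Replicate 2 gave the lowest of the 3 signals for 7 of the 8 genes, all but UBP23, and replicate 1 the highest for 5 of 8. Over all probe sets, replicate 2 was the lowest for 29.8% and replicate 1 the highest for 41.3%. The counts for the UBP genes were the same after median centring. That centring could change the order little, since array medians at 2 d were 510.4, 501 and 505 for replicates 1, 2 and 3. At 0 d and 8 d no array was the lowest for more than 4 of the 8. The order was uneven at 0 d too, where replicate 1 was the lowest for 0 of the 8 and for 30.5% of all probe sets.

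The gene whose time course had the largest range was UBP23. Among 5520 other probe sets with 1 gene, the 3 with the highest Pearson correlation with it over the 9 arrays were AT1G24510 (r = 0.992), AT3G12390 (r = 0.992) and AT5G05210 (r = 0.989). Their changes were 1.04, 0.998 and 2.23 in 8 d against 0 d, and 0.69, 0.65 and 1.54 in 2 d against 0 d. A likeness of this kind is common in the table, since 999 of the 5520 had an r above 0.9, and the 9 arrays share 3 time points.

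The genes that put ubiquitin on, and the proteasome that reads it, were represented thinly. Over 10 lists 19 genes were measured, named pathway genes below. They include TCP15, a transcription factor, and GI, a clock protein, both listed for ties to particular UBPs. In 8 d against 0 d 2 of the 19 rose and 2 fell, TCP15 among the latter, against 43.5% of all probe sets called in either direction. Their median change was 0.51 (0.40 for all). None rose and 1 (TCP15) fell in 2 d against 0 d, against 14.9% of all called. In 8 d against 2 d 1 rose and 1 fell, against 22.1% of all. No E1 enzyme, which activates ubiquitin, and no gene of the UBQ series, which encode ubiquitin itself, was among them.

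Of the E2 enzymes, which carry activated ubiquitin, 8 of 39 listed genes were measured. UBC20, of the E2 class that works with the anaphase-promoting complex in cell division, rose in 8 d against 0 d, with a mean signal of 1593 ± 279 at 8 d and 519 ± 36.9 at 0 d (SD, n = 3 each), a log2 change of 1.61 (SE 0.14; limma, adjusted p = 3.15e-06). It was at 0.97 (SE 0.14) in 2 d against 0 d, short of the fold threshold. UBC19, of the same class, was at -0.45 (SE 0.12) in 8 d against 0 d and was not called. UBC29 fell in 8 d against 2 d, with a log2 change of -1.16 (SE 0.12), and in 8 d against 0 d, with one of -1.004 (SE 0.12). The second call was lost with hybridisation-control centring (-0.93), on adding 16 (-0.97) or 64 (-0.88) to each signal, and when 0 d replicate 1 (-0.99) was left out, or replicate 3 of that group (-0.94), or 8 d replicate 2 (-0.90). The other 5 were not called in either comparison with 0 d and ran from -0.65 (UBC30) to 0.94 (UBC37) at 8 d.

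Of the 19S particle of the proteasome, which takes in ubiquitinated proteins, 4 of 30 listed genes were measured, and none was called. They were at 0.54 (AT5G23540), 0.66 (AT1G45000), 0.70 (AT2G32730) and 0.78 (AT1G75990) in 8 d against 0 d, with adjusted p from limma between 0.000129 and 0.00199. These values lie in the range of the 6 UBP genes that were not called, from 0.60 to 0.83, apart from AT5G23540 just below it. AT1G79210, the single measured gene of the 20S core, was at 0.51 in 8 d against 0 d and -0.16 in 2 d against 0 d. Of 13 genes listed for other deubiquitinase families, a list kept apart from the 19S genes, CSN5B alone was measured. CSN5B is a metalloprotease subunit of the COP9 signalosome, which removes the ubiquitin-like protein RUB from cullins. It was at 0.92 (SE 0.17) in 8 d against 0 d and was called without 8 d replicate 2 (1.05). CUL4, a scaffold of ubiquitin ligases, was at 0.42 (SE 0.11) in 8 d against 0 d.

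Genes listed for their ties to particular UBPs or to ubiquitin on histone H2B went different ways. TCP15, a transcription factor that acts on cell proliferation and endoreduplication and whose stability depends on the DA1 family, was the single measured gene of the 8 organ size genes tied to UBP14 and UBP15. It fell in both comparisons with 0 d, to 247 ± 35.1 at 2 d and 135 ± 9.90 at 8 d, against 821 ± 79.6 at 0 d (SD, n = 3 each), with log2 changes of -1.74 (SE 0.13; limma, adjusted p = 7.93e-06) at 2 d and -2.60 (SE 0.13; limma, adjusted p = 1.38e-07) at 8 d. Of 6 genes listed for adding ubiquitin to histone H2B or removing it, 2 were measured. AT5G58575 rose in 8 d against 0 d by 1.39 (SE 0.16) and in 8 d against 2 d by 1.67 (SE 0.16). In 2 d against 0 d it was at -0.28 (SE 0.16). Its change in 8 d against 0 d was 0.97 after quantile normalization, short of the threshold. AT3G27100 was at -0.16 (SE 0.10) in 8 d against 0 d and was not called. GI, a clock protein that binds UBP12 and UBP13, was at 0.43 (SE 0.14) in 8 d against 0 d and -0.37 (SE 0.14) in 2 d against 0 d, neither past the fold threshold.

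**Figure D4:**
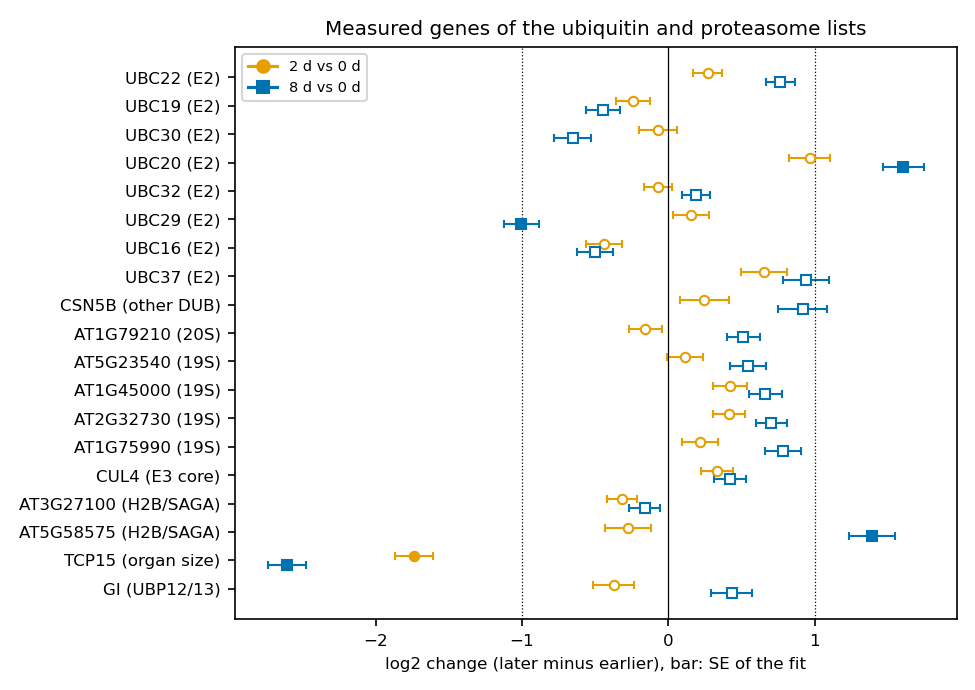
Log2 change (later minus earlier) with the SE of the limma fit for the 19 measured pathway genes, in 2 d against 0 d (circles) and 8 d against 0 d (squares). TCP15 and GI are among the 19 for their ties to particular UBPs. Filled symbols passed an adjusted p of 0.05 and a log2 change of 1 in either direction (dotted lines). UBC20 and AT5G58575 rose and UBC29 and TCP15 fell at 8 d, and TCP15 was the one gene called at 2 d.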

How the data were processed

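RNA of whole seedlings was measured on 9 arrays, whose titles gave group and replicate number. The authors deposited 1 intensity per probe set, linear and not logged. Per the submitters' processing notes MAS5 was used, while its version, its scaling target and how probe sets were selected were not given in the sources used here. No signal was below the floor of 1, and log2 values were used as they stood. Controls (23) were left out. Linear models with 1 mean per time point were fitted over the 9 arrays (lmFit and eBayes of limma 3.58.1, R 4.3.3), with p-values adjusted by Benjamini-Hochberg over 10343 probe sets, and were tested on simulated data. The number of arrays limits the precision.

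Gene names came from the array annotation, updated by entrez number from a reference gene table (TAIR10.1): 5521 had 1 gene, 214 several and 4608 none, and 5503 of the 5521 matched. The members and lists were chosen with earlier results of these data known. All UBP genes are named. From each list at most 4 called genes per comparison were to be named, and all uncalled list genes but 3 are given besides, a choice made after their values were seen, as were the within-array ratios and the order of replicates. Lists were described by counts and medians, with no list test, using the brightest probe set of a gene. Arrays were not treated as paired by replicate number. Of 9 same-numbered pairs, 2 had correlated deviations above 0.1, both of 2 d with 8 d (r = 0.231 and 0.172). Differently numbered pairs ran from -0.271 to 0.227, so these values cannot decide whether the arrays were paired. No arrays held identical values. Alternatives were other scalings, offsets, filters, priors, weights, a replicate block, other thresholds and leaving out each array.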

Additional observations from a re-analysis of the deposited data

How the results depend on the processing

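Without detection calls, whether a low signal stood above background was not tested. In mean log2 signal UBP19 stood above only 8.9% of all probe sets, UBP27 above 17.4%, UBP20 above 17.5% and UBP26 above 18.3%. Hybridisation-control centring and all alternatives for counts without a fold threshold, counts of non-overlapping arrays, ratios and pathway genes were chosen after seeing the data. The replicate block gave 0, 2 and 0 UBP genes called in 2 d against 0 d, 8 d against 0 d and 8 d against 2 d, as without it; at an adjusted p under 0.05 whatever the fold it gave 7, 8 and 4 higher, the 4 including UBP27 (adjusted p = 0.0384). A block cannot move the log2 changes.

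Of 465 UBP values under alternatives, 453 kept direction and side of the threshold. Some could not move, and uncalled values that lost a low adjusted p count as kept, so 453 does not show stability. In 2 d against 0 d, 1 UBP gene (UBP23) was called after centring on hybridisation controls, 0 to 1 with an array left out (1 without 2 d replicate 3), 3 at a log2 change of at least 0.6 and 7 with no fold threshold. In 8 d against 0 d, 1 was called after quantile normalization, median centring, adding 64 or leaving out the dimmest 40% of probe sets (which kept 3 of the 8, without UBP15), 2 with any array left out, 7 at a log2 change of at least 0.6 and 8 with no fold threshold. In 8 d against 2 d, 0 were called under every alternative but that with no fold threshold, which gave 3. With no fold threshold, quantile normalization gave 4 higher genes at 2 d and 5 at 8 d, and median centring 4 at 2 d; leaving out the dimmest 40% gave 3, 3 and 1 in the 3 comparisons, and array weights 7 in 8 d against 2 d. With an array left out these counts ran from 5 to 7 at 2 d, stayed at 8 at 8 d, and ran from 3 to 5 (without 2 d replicate 1) in 8 d against 2 d. UBP genes higher at 8 d than at 2 d without overlap numbered 4, and 2 after median centring. With an array left out they numbered 4 to 6, fewer arrays making overlap rarer, 6 being reached without 2 d replicate 1 and without 2 d replicate 3.

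UBP19 at 2 d turned to -0.27 after quantile normalization, -0.061 after median centring and -0.041 with array weights, and ran from -0.044 (without 2 d replicate 1) to 0.201 (without 2 d replicate 2) with an array left out. UBP26 in 8 d against 2 d turned to -0.084, -0.065 and -0.088 after quantile, median and hybridisation-control scaling. Pathway genes called at 2 d numbered 2 with hybridisation-control centring, and 2 without either 0 d replicate 3 or 2 d replicate 2 (UBC20 joined TCP15), with 1 to 2 over arrays left out. Without the dimmest 40% of probe sets, 0, 2 and 1 were called in the 3 comparisons, with 14 of 19 tested. With an array left out, 3 to 4 were called in 8 d against 0 d and 2 in 8 d against 2 d. In 2 d against 0 d, UBC29 turned to -0.018 after median centring and CSN5B to -0.12 after quantile normalization. Except where an alternative tests fewer genes or arrays, the cause was not tested.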
